A study of Mus musculus with 4 samples.

Results

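Pomc and 3 transcription factors of the pituitary cells that make it, Tbx19, Neurod1 and Pax7, were followed through 4 RNA-seq libraries of sorted gonadotropes. These 4 genes were picked by symbol from the 54532 rows of the deposited count table, with each row's identifier matched to the GENCODE M21 annotation of the mm10 mouse genome. Pomc was taken up because its level stood above that of Lhb, the luteinizing hormone beta subunit, in cells sorted as gonadotropes. Its level in these libraries is therefore given as a description and not tested. The groups were GATA2 cKO, a conditional knockout of Gata2 that the study's title calls gonadotrope-specific, and control, with 2 libraries each. All mice were males of 10 to 12 weeks on a mixed strain background, kept on a 12-hour light cycle. The Cre driver, the sorting marker and the number of animals behind a library are not stated in the labels, so p-values measure the spread between libraries, which may be technical. The sample labels name purified gonadotropes, while the design text of the series names whole pituitaries.

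Pomc encodes proopiomelanocortin, a precursor that is cut into peptides such as adrenocorticotropic hormone (ACTH), the melanocyte-stimulating hormones and beta-endorphin. In the pituitary it is the product of corticotropes in the anterior lobe and of melanotropes in the intermediate lobe. Tbx19 encodes TPIT, the T-box factor that drives Pomc transcription and terminal differentiation in both cell types and that is known to hold back the gonadotrope fate. Neurod1 encodes a basic helix-loop-helix factor that acts on Pomc in corticotropes, and Pax7 encodes a paired-box factor that directs cells to the melanotrope fate. GATA2 is a zinc-finger factor of gonadotropes and thyrotropes.

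The 300 bases around the start sites of Pomc and Tbx19 are shown because they are where the hormone gene and its main lineage factor begin to be transcribed. They run from 250 bases before to 50 bases after the start, taken from RefSeq on GRCm38.p6, and all 4 genes had an entry. Capitals mark E-boxes (CANNTG, the kind of site that basic helix-loop-helix factors bind) and GATA, searched on both strands.
Pomc, chr12:3954695-3954994, plus strand: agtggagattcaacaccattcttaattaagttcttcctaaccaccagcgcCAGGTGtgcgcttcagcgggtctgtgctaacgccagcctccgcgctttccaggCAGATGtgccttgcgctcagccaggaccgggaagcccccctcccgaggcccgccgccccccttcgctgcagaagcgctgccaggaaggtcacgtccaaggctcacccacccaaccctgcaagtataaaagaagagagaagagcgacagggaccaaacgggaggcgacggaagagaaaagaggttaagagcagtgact
Tbx19, chr1:165160724-165161023, minus strand: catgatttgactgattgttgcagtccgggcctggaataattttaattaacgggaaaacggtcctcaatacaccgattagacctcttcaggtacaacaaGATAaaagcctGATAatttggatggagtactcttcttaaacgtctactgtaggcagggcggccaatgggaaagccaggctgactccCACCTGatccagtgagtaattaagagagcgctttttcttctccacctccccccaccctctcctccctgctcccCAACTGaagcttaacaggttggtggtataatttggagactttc

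The Pomc window held 2 E-boxes, beginning at -200 and -147 from the start site, and 0 matches to GATA. The second E-box reads CAGATG, a form that 17.2% of the 32851 promoters of this length held, and TATAAA began at -25 (13.6% of promoters). The Tbx19 window held 2 E-boxes and 2 matches to GATA, at -152 and -141. An E-box was present in 72.3% of all promoters and GATA in 57.9%, so these matches are common. Neurod1 had 1 E-box and Pax7 had 1 match to GATA. The T-box half-site TCACACC (3.98% of promoters) and the bicoid-type site TAATCC (7.06%) had 0 matches in the 4 windows. These are matches of letters in a short window and describe no binding.

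Total counts were 15541553 and 18362182 in the cKO libraries and 10646909 and 21135301 in the control libraries. Levels are counts per 1000000 of the library (CPM) after scaling by TMM factors, which lay between 0.971 and 1.03. Gata2 itself, the target of the knockout, had 221 and 214 CPM in cKO against 537 and 526 CPM in control, counted over the whole gene. Control replicate 1, the shallowest library, was least like the rest, with correlations of log2 CPM across genes of 0.841 to 0.889 against 0.902 to 0.928 among the other 3. Mitochondrially encoded transcripts took 7.76% and 8.98% of counts in cKO and 5.42% and 6.15% in control.

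Pomc was among the most abundant transcripts of every library. The gene (ENSMUSG00000020660.6) lies on mm10 chromosome 12 from 3954951 to 3960642, plus strand, and its annotated exons cover 1318 bases. It had 6032 and 7145 CPM in cKO against 7161 and 9813 CPM in control. Control replicate 2 stood above the other 3 libraries, and the higher cKO library lay just under the lower control library, so the groups did not overlap by a narrow margin. These levels made up 0.604% and 0.692% of all counts in cKO and 0.740% and 0.972% in control. Pomc ranked 9 and 8 among all genes in the cKO libraries, and 6 and 4 in the control libraries.

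Pomc was not called as changed in the cKO libraries. Its mean was 6589 ± 787 CPM in cKO and 8487 ± 1875 CPM in control (SD, n = 2 each). The log2 fold change, cKO minus control, was -0.37 (SE 0.16), with an adjusted p of 0.704 from edgeR's quasi-likelihood test over all 17349 genes tested. The same test called 0.0576% of genes, that is 10, and 1221 had an unadjusted p under 0.05. Both cKO libraries lay below both control libraries for 19.3% of all genes tested. The result depended on the test and on 1 library. With limma-voom the log2 fold change was -0.40 (adjusted p = 2.87e-05), in a fit that called 1.48% of genes, and without control replicate 1 it was -0.58 (edgeR adjusted p = 0.000485, 0.32% of genes called). Without control replicate 2 it was -0.12 (edgeR adjusted p = 0.537). In sorted cells that are sequenced in bulk, fewer Pomc-making cells and less Pomc RNA per cell cannot be told apart.

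**Figure D1:**
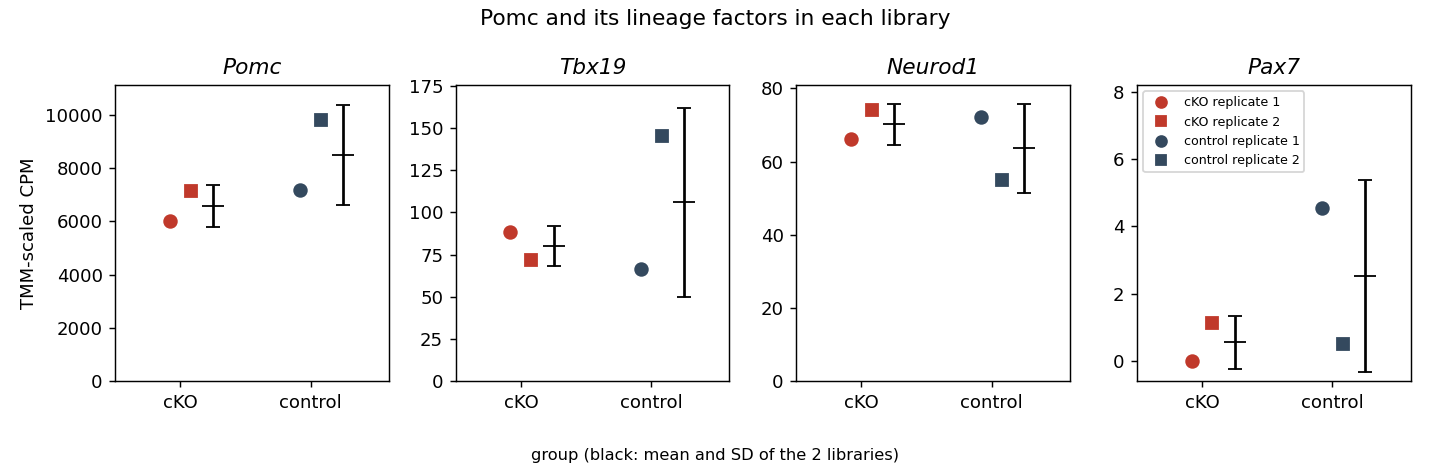
TMM-scaled CPM of Pomc, Tbx19, Neurod1 and Pax7 in each library, cKO left of control, with the mean and SD of the 2 libraries in black. Pomc was highest in control replicate 2 at 9813 CPM, Tbx19 was at 66.5 and 145 CPM in the control libraries, and Pax7 stayed under 5 CPM.

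Per length, the order of Pomc and Lhb was not the same in all libraries. Lhb has 678 bases of exon, so dividing by length raises it relative to Pomc. Exons of Lhb share bases with Ruvbl2 on the opposite strand, and how reads in the shared bases were assigned is not given. Ruvbl2 had 385 and 478 counts in cKO against 683 and 713 in control. Lhb had 32177 and 39952 counts in cKO against 56563 and 85778 in control. By CPM alone, Pomc was 2.92 and 3.18 times Lhb in cKO against 1.39 and 2.39 times in control. By CPM per kb of exon, Pomc had 4577 and 5421 in cKO against 5433 and 7445 in control, and Lhb had 3052 and 3312 in cKO against 7586 and 6046 in control. The per-kb ratio was therefore 1.5 and 1.64 in cKO and 0.716 and 1.23 in control. Pomc stood above Lhb per length in both cKO libraries and in control replicate 2, and below it in control replicate 1. With the longest coding transcript of each gene as the length, the ratio was 1.90 and 2.07 in cKO and 0.905 and 1.56 in control, and control replicate 1 was again below 1.

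Both cKO ratios exceeded both control ratios, a mean difference of 0.74 on the log2 scale. Since Pomc was picked by its level against Lhb, this difference is a description and was not tested. Lhb itself had a log2 fold change of -1.10 (edgeR adjusted p = 0.0777, SE 0.13), against -0.37 for Pomc. Against Cga, the common alpha subunit of the glycoprotein hormones, the per-kb ratio of Pomc was 1.27 and 1.24 in cKO and 0.856 and 1.16 in control. Cga is thus also close to Pomc in level, at 3615 and 4387 CPM per kb in cKO against 6346 and 6433 in control. DESeq2 called Lhb and Cga (adjusted p = 4.49e-10 and 3.81e-05, 5.44% of genes called), and so did limma-voom. The newer quasi-likelihood method of edgeR called them too (adjusted p = 0.00353 and 0.046, 0.271% of genes called). With no filter on low counts edgeR called Lhb and not Cga.

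**Figure D2:**
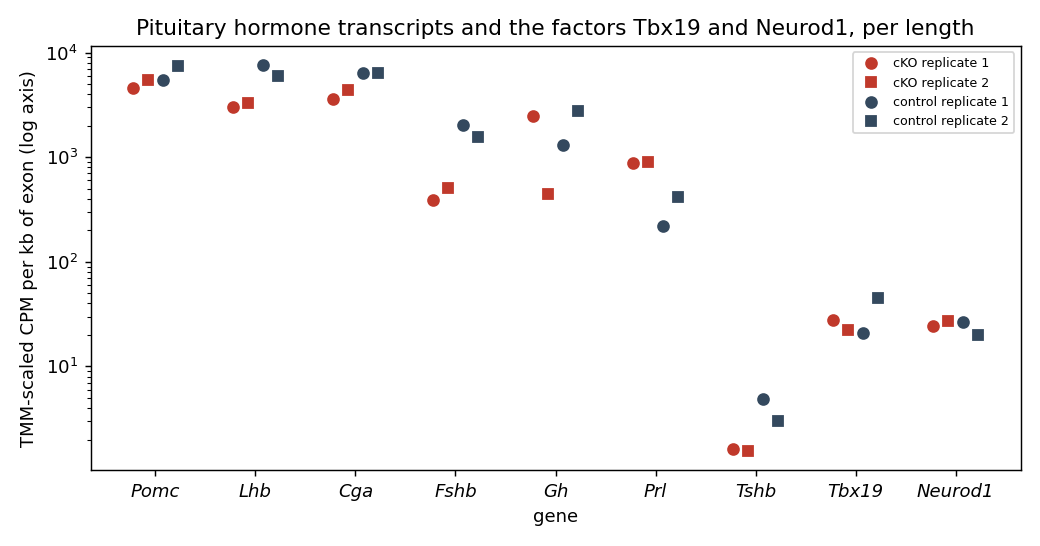
Levels per kb of annotated exon, on a log axis, of the pituitary hormone transcripts and of Tbx19 and Neurod1 in each library. Pomc, Lhb and Cga form the top group at 3052 CPM per kb or more in every library, while Tbx19 and Neurod1 stay between 20.1 and 45.5 CPM per kb.

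Other pituitary hormones were present too. The share of Pomc in the per-kb sum of Pomc, Lhb, Fshb, Cga, Prl, Gh and Tshb was 30.5% and 36.2% in cKO against 23.7% and 30.2% in control. Prl, the prolactin transcript of lactotropes, had 1249 and 1271 CPM in cKO against 312 and 583 CPM in control. The ratio of Pomc to Prl per kb was accordingly 5.16 and 6.0 in cKO against 24.5 and 18.0 in control. Gh, the growth hormone transcript of somatotropes, had 2149 and 385 CPM in cKO against 1124 and 2375 CPM in control, so it varied more within each group than between them. Pomc ranged over 0.70 on the log2 scale across the 4 libraries, against 2.02 for Prl and 2.62 for Gh. Tshb, the thyrotropin beta subunit, had 7.33 and 7.08 CPM in cKO against 22.3 and 13.7 CPM in control.

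Tbx19 transcripts were detected in all libraries at a level far below Pomc. The gene (ENSMUSG00000026572.11) lies on chromosome 1 from 165137855 to 165160773, minus strand, with 3192 bases of exon. Tbx19 had 1378 and 1274 counts in cKO against 731 and 3038 in control, or 88.6 and 71.6 CPM in cKO against 66.5 and 145 CPM in control. Control replicate 2 was the highest and control replicate 1 the lowest, with both cKO libraries between them, so the groups overlapped. The log2 fold change was -0.40 (edgeR adjusted p = 0.975, SE 0.36). It was -0.87 without control replicate 1 (edgeR adjusted p = 0.306) and 0.27 without control replicate 2 (edgeR adjusted p = 0.697), so its sign rested on control replicate 2. That same library was also the highest for Pomc.

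The ratio of Pomc to Tbx19 per kb was 165 and 242 in cKO against 261 and 164 in control, with the groups overlapping. The 2 control libraries differed more from each other in this ratio than the group means did, which were 203 ± 54.3 in cKO and 212 ± 68.7 in control (SD, n = 2 each). The ratio of Pomc to Crhr1, the receptor for corticotropin-releasing hormone, overlapped as well, per kb at 250 and 217 in cKO against 181 and 313 in control. Against Neurod1 the ratio was 188 and 199 in cKO, just under the 205 and 370 in control.

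Neurod1 stood at a level per length close to that of Tbx19. The gene (ENSMUSG00000034701.9) lies on chromosome 2 from 79452521 to 79456751, minus strand, with 2729 bases of exon. Neurod1 had 66.3 and 74.2 CPM in cKO against 72.3 and 55.0 CPM in control. Control replicate 2, the highest library for Pomc and Tbx19, was the lowest for Neurod1, and the groups overlapped. The log2 fold change was 0.14 (edgeR adjusted p = 0.999, SE 0.24), and it was 0.35 without control replicate 1 and -0.038 without control replicate 2. Per kb, Neurod1 was at 24.3 and 27.2 in cKO against 26.5 and 20.1 in control, and Tbx19 at 27.8 and 22.4 in cKO against 20.8 and 45.5 in control. Each of the pair was above the other in 2 of the 4 libraries, so their order was not settled. Exons of Neurod1 share bases with Cerkl on the same strand, and how reads in the shared bases were assigned is not given. Cerkl had 111 and 127 counts in cKO against 191 and 411 in control, and Neurod1 had 1031 and 1320 in cKO against 795 and 1150 in control.

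Pax7 was close to the limit of detection. The gene (ENSMUSG00000028736.13) lies on chromosome 4 from 139737062 to 139833528, minus strand. It had 0 and 20 counts in cKO against 50 and 11 counts in control. The count of 0 in cKO replicate 1 allows a level of up to 0.193 CPM, a limit that covers counting error only. Control replicate 1 was the highest library at 4.55 CPM, and the others lay at or under 1.12 CPM. The fitted log2 fold change was -2.15 with an SE of 2.92 (edgeR adjusted p = 0.999), and it was 0.090 without control replicate 1, so no direction can be given.

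All 4 genes passed the filter on low counts and 0 of the 4 were called by edgeR, against 0.0576% of all genes tested. Of the 4, Pomc, Tbx19 and Pax7 had a negative fold change, as did 8250 of 17349 genes tested. Ordered by level per kb, Pomc came first in every library, Tbx19 and Neurod1 followed with no fixed order, and Pax7 was last. Their deposited counts were whole numbers in every library.

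**Figure D3:**
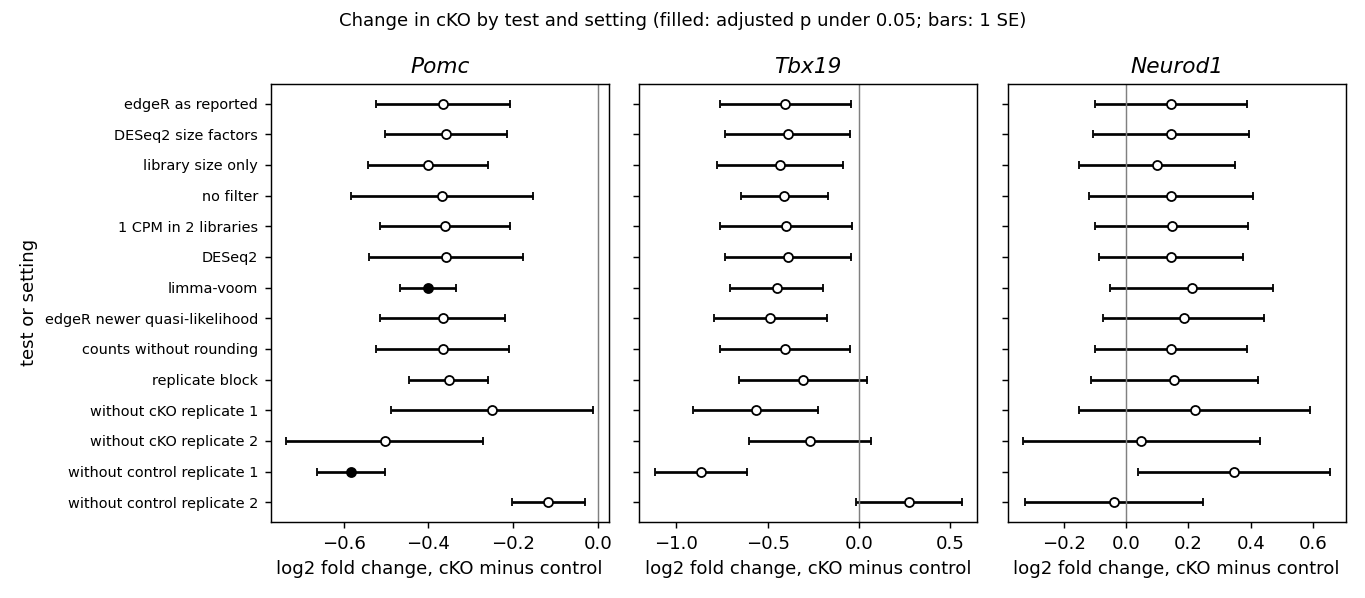
Log2 fold changes of Pomc, Tbx19 and Neurod1, cKO minus control, with 1 SE, under each test and setting, with filled points where the adjusted p was under 0.05. Pomc was negative throughout, from -0.58 to -0.12, and filled for limma-voom and without control replicate 1, while Tbx19 and Neurod1 crossed 0 without control replicate 2.

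The wider list of corticotrope markers had 7 members, 3 of them among the 4 genes described above. All 7 were tested, 5 were lower and 2 higher in cKO, and 0 were called. Their median log2 fold change was -0.37, against 0.032 over all genes tested. Without Pomc, 4 were lower and 2 higher, and the median was -0.36. Crhr1 had 45.0 and 61.4 CPM in cKO against 73.8 and 58.5 CPM in control. The groups overlapped, with a log2 fold change of -0.31 (SE 0.27). Avpr1b, the vasopressin receptor of corticotropes, had 4.69 and 4.78 CPM in cKO against 6.91 and 12.7 CPM in control (log2 fold change -1.05, SE 0.85). Gpc5, a glypican, had 6.30 and 6.01 CPM in cKO against 8.18 and 9.89 CPM in control. Besides Neurod1, the higher one was Tnnt1, a troponin T gene, at 21.5 and 33.7 CPM in cKO against 17.3 and 19.4 CPM in control (log2 fold change 0.59, SE 0.41). Summed without Pomc, the other 6 markers had 233 and 252 CPM in cKO against 245 and 300.5 CPM in control.

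Melanotrope markers were 6 with Pomc, all tested, with 4 lower and 2 higher, 0 called and a median of -0.19. Without Pomc, 3 were lower and 2 higher, and the median was -0.020. With Pomc kept and control replicate 1 left out, the median was 0.016. Pcsk2, the convertase that yields melanocyte-stimulating hormone, had 172 and 228 CPM in cKO against 222 and 184 CPM in control. The groups overlapped, and its log2 fold change was -0.020 (SE 0.20). Oacyl, an acyltransferase-like gene, had 0 and 26 counts in cKO against 38 and 43 counts in control. Rbfox3, a splicing factor gene, stayed between 5.27 and 6.21 CPM. Drd2, the dopamine receptor of melanotropes and also of lactotropes, was higher in both cKO libraries, with a log2 fold change of 0.66 (edgeR adjusted p = 0.798, SE 0.36). Drd2 was at 33.3 and 27.9 CPM in cKO against 18.3 and 20.4 CPM in control. Of the 5 markers besides Pomc, Pcsk2, Drd2 and Rbfox3 were thus detected in every library, and Pax7 and Oacyl were at 0 in cKO replicate 1. The 5 summed to 211 and 265 CPM in cKO against 253 and 213 CPM in control, most of it Pcsk2. The part of melanotropes in the Pomc level was not tested.

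**Figure D4:**
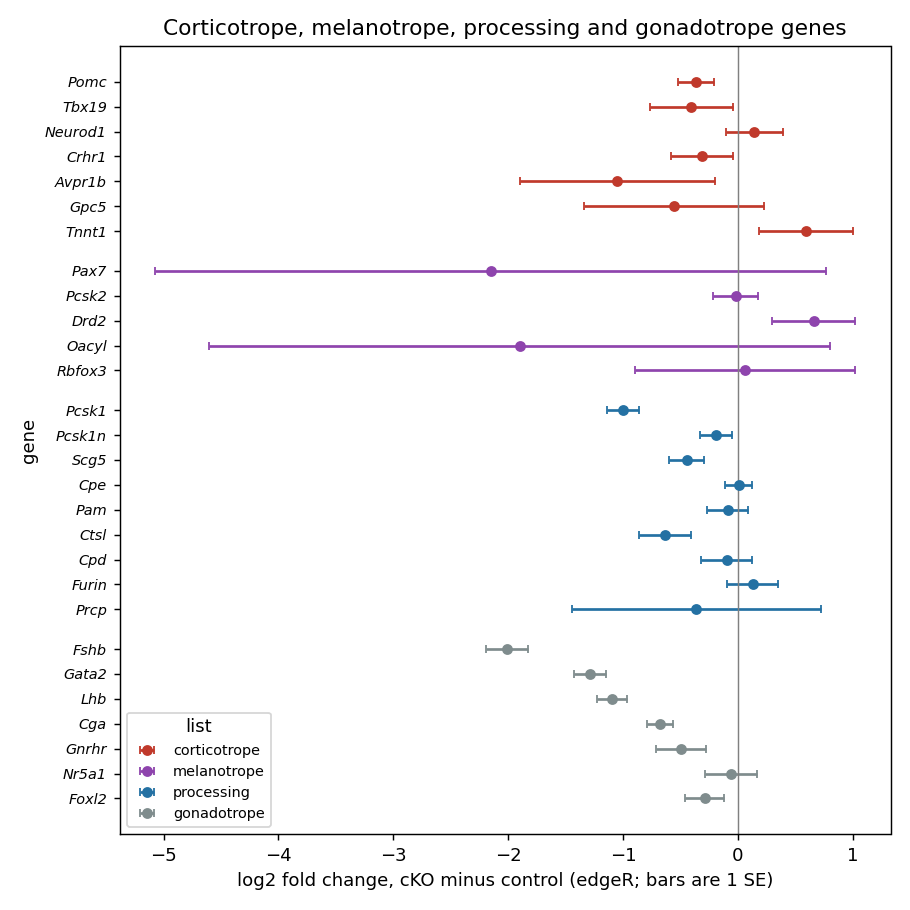
Log2 fold changes, cKO minus control, with 1 SE from edgeR for corticotrope, melanotrope, peptide processing and gonadotrope genes. The 7 corticotrope markers run from -1.05 for Avpr1b to 0.59 for Tnnt1, with Pomc at -0.37, and the gonadotrope genes shown run from -2.01 for Fshb to -0.061 for Nr5a1.

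The enzymes that cut and finish the peptides had unequal values. Of 10 tested genes 8 were lower and 2 higher in cKO, 0 were called, and the median was -0.14. Pcsk1, the convertase that releases ACTH, had 385 and 411 CPM in cKO against 848 and 744 CPM in control (log2 fold change -1.0, edgeR adjusted p = 0.108, SE 0.14). It is also expressed in gonadotropes. The ratio of Pcsk1 to Pcsk2 per kb was 3.16 and 2.54 in cKO against 5.39 and 5.70 in control, with no overlap. The ratio of Pomc to Pcsk1 per kb was 66.7 and 73.9 in cKO against 35.9 and 56.1 in control. Scg5, the chaperone of the Pcsk2 product, had 685 and 712 CPM in cKO against 1067 and 836 CPM in control, with a log2 fold change of -0.45 (SE 0.15). Pcsk1n, an inhibitor of the Pcsk1 product, had -0.19 (SE 0.14), and Cpe, the carboxypeptidase that trims basic residues, had 0.0081 (SE 0.12). Pcsk1 was called by edgeR without control replicate 1, without control replicate 2 and without cKO replicate 2, with adjusted p from 0.00207 to 0.0236. Those fits called 0.32%, 3.5% and 0.503% of genes.

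Genes known to regulate Pomc lay on both sides of 0. Of 25 listed genes 22 were tested, 9 were higher, 13 were lower and 0 were called, with a median of -0.031. Pitx1, the homeodomain factor that acts with TPIT on Pomc and that gonadotropes express as well, had 209 and 219 CPM in cKO against 725 and 547 CPM in control. Its log2 fold change was -1.57 (edgeR adjusted p = 0.0575, SE 0.17), and it was called when any 1 library was left out, with adjusted p from 1.2e-05 to 0.000189. The fit without cKO replicate 1 called 0.361% of genes. The ratio of Pomc to Pitx1 per kb was 58.1 and 65.6 in cKO against 19.9 and 36.1 in control. Nr4a1, the orphan receptor NUR77 that mediates the effect of corticotropin-releasing hormone on Pomc, had 1379 and 1368 CPM in cKO against 1391 and 1130 CPM in control. Fos and Jun had log2 fold changes of -0.0061 (SE 0.12) and 0.016 (SE 0.14). Stat3, which relays leukaemia inhibitory factor to Pomc, had 1094 and 1021 CPM in cKO against 763 and 778 CPM in control (log2 fold change 0.46, edgeR adjusted p = 0.518, SE 0.12). Il6st and Lifr, the receptor chains for that factor, had been chosen with Pitx1 once values were known and had 0.73 (SE 0.16) and 0.88 (SE 0.36). For these 3 genes both cKO libraries lay above both control libraries, as for 19.7% of all genes tested.

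**Figure D5:**
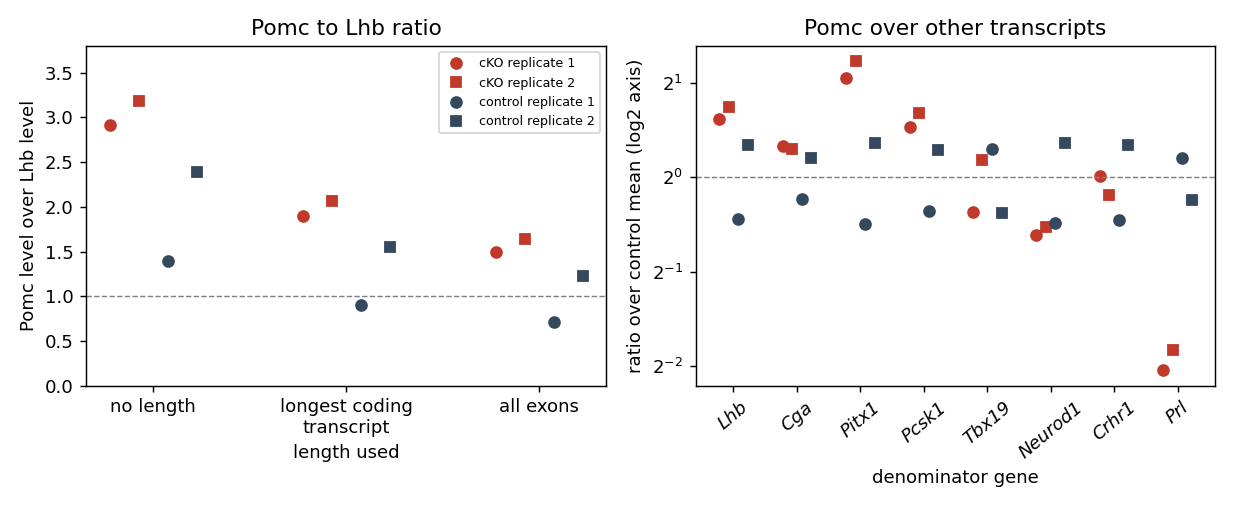
Left, the ratio of Pomc to Lhb in each library by the length used, with a dashed line where both are equal. Right, the per-kb ratio of Pomc to 8 other transcripts over its control mean, on a log2 axis. On the left control replicate 1 falls below 1 once length is used. On the right the cKO points lie above both control points for Lhb, Cga, Pitx1 and Pcsk1. They lie below both for Prl and, narrowly, for Neurod1, and among them for Tbx19 and Crhr1. These ratios are descriptions, and the denominators had fold changes of their own. On the log2 scale these were -1.10 for Lhb, -0.68 for Cga, -1.57 for Pitx1, -1.0 for Pcsk1, 1.49 for Prl and 0.14 for Neurod1. Of all single genes tested, 19.3% had both cKO libraries below both control libraries and 19.7% had both above.

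Signalling from corticotropin-releasing hormone and vasopressin was represented by 26 genes, of which 23 were tested, 9 higher and 14 lower, with 0 called and a median of -0.10. Gnas, which encodes the stimulatory G protein alpha subunit, had 2353 and 2509 CPM in cKO against 1710 and 1786 CPM in control. Its log2 fold change was 0.48 (edgeR adjusted p = 0.394). The annotated exons of Gnas cover 11186 bases, against 3947 in its longest coding transcript, so the count may hold other transcripts of the gene. The protein kinase A subunits Prkar1a and Prkar1b had -0.11 (SE 0.13) and -0.10 (SE 0.18), and the adenylyl cyclase gene Adcy6 had -0.22 (SE 0.18). Crh itself had 0 counts in each library.

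The receptors for the Pomc peptides were scarce. Of 14 genes for melanocortin and opioid receptors, their accessory proteins and related peptides, 6 were tested, 4 were higher, 2 were lower and 0 were called. Mc2r (the ACTH receptor), Mc4r, Oprd1 and Pnoc had 0 counts in every library, which allows up to 0.143 to 0.273 CPM by library. Pdyn, the prodynorphin gene, had 12.2 and 26.0 CPM in cKO against 1.55 and 19.7 CPM in control. Mc1r and Mrap2 stayed under 7 CPM in every library. Oprm1, the mu opioid receptor that binds beta-endorphin, had 122 and 172 counts in cKO against 0 and 7 in control (unadjusted p = 0.0191 and adjusted p = 0.641 in edgeR).

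Genes tied to glucocorticoids, the feedback signal on Pomc, also lay on both sides. The list held corticosteroid receptors and steroid-converting enzymes as well as genes that respond to the hormone. Of 12 listed genes 10 were tested, 7 were higher and 3 lower, 0 were called, and the median was 0.15. Fkbp5, a co-chaperone of the glucocorticoid receptor, had 138 and 103 CPM in cKO against 181 and 189 CPM in control (log2 fold change -0.62, SE 0.20). Klf9 was on the other side at 222 and 182 CPM in cKO against 99.9 and 133 CPM in control (0.79, SE 0.21). Per1 had 0.064 (SE 0.19) and Dusp1 0.12 (SE 0.15). The adjusted p by edgeR was 0.529 or more for these 4 genes.

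Among lists built around the 3 factors, most tested genes of both the NEUROD1 and the T-box list were higher, with splits that varied by library set. Of 14 basic helix-loop-helix relatives, partners and inhibitors of NEUROD1, 9 were tested and all 9 had a positive fold change, Neurod1 included, with 0 called and a median of 0.39. Over all genes tested, 9099 of 17349 were higher and the median was 0.032. Without control replicate 1 the NEUROD1 list split 6 higher and 3 lower. Tcf4 and Tcf12, partners of NEUROD1, had 0.39 (SE 0.23) and 0.050 (SE 0.24), and Id2, an inhibitor of such partners, had 1.10 (edgeR adjusted p = 0.360, SE 0.23). Of the T-box genes found in the table, 7 of 16 were tested, 6 were higher and 1, Tbx19, was lower, with 0 called and a median of 0.48. Mga had 0.13 (SE 0.18), Tbx3 had 0.77 (SE 0.34) and Tbx6 stayed under 11 CPM. The T-box median moved to -0.17 without cKO replicate 1 and to -0.40 without cKO replicate 2. It was -0.61 without control replicate 1 and 6.15 without control replicate 2. The T-box genes split 5 higher and 5 lower without cKO replicate 1, and 4 and 6 without cKO replicate 2. They split 2 and 8 without control replicate 1, with 10 tested in each of these fits. Without control replicate 2 all 7 tested were higher. Of 9 PAX genes, Pax7 and Pax6 were tested, and 6 had 0 counts in every library. Pax6 had 9.39 and 5.79 CPM in cKO against 5.55 and 7.98 CPM in control.

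These counts of 0 called are from the edgeR fit named above. With all 4 libraries, DESeq2 called Pitx1 and Pcsk1 (adjusted p = 1.87e-17 and 1.81e-13, 5.44% of genes called). The newer quasi-likelihood method of edgeR called them as well (adjusted p = 0.0023 and 0.0135, 0.271% of genes called). So did limma-voom (1.48% of genes called) and edgeR with no filter on low counts (1.04%). For most other genes of these lists the calls of these other fits are not given here, so more of them may have been called. Several of the counts of 0 also depended on control replicate 2. Without it, in the fit that called 3.5% of all genes, edgeR also called Scg5 and Pcsk1n among the processing genes, Il6st and Lifr among the regulators, and Adcy1, Prkar2b and Gnas among the signalling genes. Further genes called there were Oprm1, Pdyn and Klf9, and Neurod4, Id2, Tcf4 and Id3 among the relatives and partners of NEUROD1. Neurod4 was also called without cKO replicate 1. None of Tbx19, Neurod1 and Pax7 was called with any 1 library left out.

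Markers of gonadotropes and of the other cells that a sort could hold were counted in the same way. All 9 gonadotrope markers tested were lower in cKO, with Fshb and Gata2 called and a median of -0.55, and Gata2 is the gene targeted by the knockout. In 7 of the 9 both cKO libraries lay below both control libraries, against 19.3% of all genes tested. Their summed level was 7186 and 8432 CPM in cKO against 15930 and 14560 CPM in control. The split was 7 lower and 2 higher without cKO replicate 1 and also without control replicate 2, where the median was -0.23. Lhb was also called when any 1 library was left out, and Cga without either of the control libraries.

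Of 6 lactotrope markers 5 were higher in cKO, with 0 called and a median of 1.24, and they summed to 1654 and 1697 CPM in cKO against 683 and 1003 CPM in control. The hormone transcript Prl had a log2 fold change of 1.49 (edgeR adjusted p = 0.248, SE 0.27). Prl was called when any 1 library was left out, with edgeR adjusted p from 2.64e-06 to 0.000136. It was also called by DESeq2 (adjusted p = 0.00934, 5.44% of genes called), by limma-voom, by edgeR's newer quasi-likelihood method (adjusted p = 0.0164, 0.271% of genes called) and with no filter on low counts (1.04% of genes called).

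Thyrotrope markers had 0 called and summed to 156 and 112 CPM in cKO against 81.1 and 78.4 CPM in control. Most of that was Dio2, a deiodinase gene, at 116 and 82.7 CPM in cKO against 54.9 and 52.6 CPM in control, while Tshb was lower in both cKO libraries. Somatotrope markers summed to 2196 and 420 CPM in cKO against 1147 and 2413 CPM in control, so the groups overlapped, with 0 called, and Gh was called without cKO replicate 1. Stem cell markers summed to 189 and 196 CPM in cKO against 112 and 154 CPM in control, with 0 of 6 tested called. The part of these cells in the Pomc result was not tested.

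Of 7 markers of hypothalamic Pomc neurons 4 were tested, 2 were higher, 2 were lower and 0 were called, while Nkx2-1, Rax and Htr2c were at 0 in every library. They summed to 333 and 442 CPM in cKO against 378 and 500.2 CPM in control. Most of this was Nr5a1, at 275 and 372 CPM in cKO against 277 and 397 CPM in control, and Isl1, at 54.5 and 61.0 CPM in cKO against 100.4 and 94.6 CPM in control. Gonadotropes express both. Of 5 pituicyte markers of the posterior lobe 3 were tested and 0 were called, and they summed to 36.7 and 44.1 CPM in cKO against 27.7 and 55.2 CPM in control, most of it Vcan. Endothelial, macrophage and leukocyte, fibroblast and pericyte, and erythroid markers each summed to 36.9 CPM or less in every library, with 0 called. Col1a2 of the fibroblast list was called without control replicate 2. The part of these cells in the Pomc level was not tested.

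Genes with the most similar profile over the 4 libraries were sought by the root mean square difference of centred log2 CPM. Among 6016 genes with an average of at least 5 on that scale, those closest to Pomc were Kcnn3, Txndc16, Ccdc47, Vamp1 and Amd1, at 0.016 to 0.039, against a median of 0.33 for all compared. Kcnn3, a calcium-activated potassium channel gene, had 97.7 and 118 CPM in cKO against 115 and 158 CPM in control. Closest to Tbx19 were Fam234a, Dtnb, Vgf, Pck2 and Arl5b, at 0.055 to 0.111. Vgf, a granule peptide precursor, had 268 and 232 CPM in cKO against 217 and 400 CPM in control. Closest to Neurod1 were Gas5, Arhgef1, Chrd, Clip3 and Parp4, at 0.013 to 0.032. Pax7, with its few counts, was compared with 13740 genes with an average of at least -0.48, where the median difference was 1.29. Closest to it were Ctss, Atp23, Sqor, Ankrd53 and Cnga4, at 0.089 to 0.128. The difference between Pomc and Tbx19 was 0.31, and that between Tbx19 and Neurod1 was 0.60. Each profile rests on 4 values that share library and depth.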

How the data were processed

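Estimated counts per gene were deposited for 4 libraries, 2 cKO and 2 control, with no scaling between libraries, and 4.5% of the deposited values were not whole. The submitters' processing notes name featureCounts 1.5.0-p1, STAR 2.5.1b and the mm10 build, with no order or settings. The sources used here do not give the annotation, strand option or rule for multi-mapped reads. Symbols, positions and exon lengths came from GENCODE M21, which 54495 identifiers matched without their version.

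Counts were rounded, filtered with filterByExpr (minimum count 10, minimum total 15) and scaled by TMM. The two-sided quasi-likelihood test of edgeR 4.0.16 (R 4.3.3) with a single term for group was applied to the whole table at a Benjamini-Hochberg adjusted p under 0.05. SE is the size of the log2 fold change divided by the square root of F. Log2 CPM used a prior of 0.5 CPM. Level per kb is CPM over the union of annotated exons. DESeq2 1.42.0, limma-voom (limma 3.58.1) and other scalings, filters and library sets were alternatives. A count of 0 was taken to allow 3 counts. The 4 genes and the 21 gene lists were chosen with earlier results of these data known. Named genes were the 4 genes, Lhb, Fshb, Cga, Gata2, Prl, Gh, Tshb, all corticotrope and melanotrope markers, the 4 highest genes and any called gene of each other list, and 5 genes of similar profile per gene. For lists of other cell types the summed level is given in place of each gene's value. Also named were some genes at 0 in every library, genes called with 1 library left out, and Cerkl and Ruvbl2, which overlap Neurod1 and Lhb. Other genes outside this rule are marked in the text.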

Additional observations from a re-analysis of the deposited data

How the results depend on the processing

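Pomc kept a negative log2 fold change under all 13 alternatives and passed the threshold under 2. It was -0.40 with limma-voom (adjusted p = 2.87e-05) and -0.25 to -0.58 with single libraries left out, apart from -0.12 without control replicate 2. With DESeq2 its adjusted p was 0.308. Tbx19 lay between -0.87 and 0.27, Neurod1 between -0.038 and 0.35 and Pax7 between -8.34 and 0.090 with single libraries left out, and each changed sign under 1 alternative. The cause was not tested. The 10 genes called over the whole table became 253 with no filter, 943 with DESeq2, 256 with limma-voom, 3 under a filter of 1 CPM in 2 libraries, 47 with edgeR's newer quasi-likelihood method, and 66 to 681 with single libraries left out. The mean per-kb ratio of Pomc to Lhb was 1.57 in cKO and 0.974 in control. It became 1.98 in cKO and 1.23 in control with the longest coding transcript as length. With no length it was 3.05 in cKO and 1.89 in control. With 1 library it was 1.5 to 1.64 in cKO and 0.716 to 1.23 in control. Deviations from the group means, matched by replicate number, correlated at -0.0105 over genes. With 2 libraries a group, this value cannot tell whether libraries of the same number were paired. With the replicate block the log2 fold change was -0.35 for Pomc, -0.31 for Tbx19, 0.15 for Neurod1 and -3.26 for Pax7. The SE for Pomc was 0.094 with the block and 0.16 without it. With the block 7 genes were called, and none of these 4 was among them. Where 1 library stands for a group, its spread is taken from the other group. Pax7 had 0 to 50 counts a library, so no direction of change can be given at this depth.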

Other observations

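Ghrhr, the receptor for growth hormone-releasing hormone picked with its values in view, had 0 and 1 counts in cKO against 95 and 80 counts in control, while Gh had 2149 and 385 CPM in cKO against 1124 and 2375 CPM in control. The adjusted p of Ghrhr by edgeR was 0.606. Usp8, a deubiquitinase gene mutated in human corticotrope tumours and picked in the same way, had 97.9 and 112 CPM in cKO against 156 and 143 CPM in control (log2 fold change -0.51, SE 0.19, edgeR adjusted p = 0.654). Neurod4, a relative of Neurod1 also picked that way, had 22.4 and 56.1 CPM in cKO against 5.09 and 18.0 CPM in control (edgeR adjusted p = 0.684).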
